A study of Mus musculus with 10 samples.

Results

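Of the 10431 genes in the deposited blood expression table, 49 carry the symbol of a translation initiation factor. They were taken as every gene named *Eif1* to *Eif6* except the *Eif2ak* genes, which encode kinases that act on a factor and are not factors themselves, and they are described here by the complex each belongs to. The symbols also take in 3 regulators of eIF4E and 1 processed pseudogene, and for short all 49 are called factors. RNA was sequenced from whole blood of 10 female C57BL/6J mice (C57BL6 in the labels) bought at 9 weeks of age and housed singly. All 10 were put on high-fat food (45% of kcal as fat), and after 3 days olanzapine was mixed into it for 14 days. The AIWG-P cohort (mice P1, P3, P5, P7 and P8) gained most weight on the drug and the AIWG-R cohort (R1, R2, R4, R8 and R9) gained least, so the cohorts differ by outcome and not by treatment. The study's methods describe the sequenced blood as drawn at baseline, before either diet, while the sample labels name the olanzapine diet and describe blood from both ends of the study, so the labels leave the time point open. Each sample is named for a different mouse.

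Initiation factors bring the small ribosomal subunit, the initiator tRNA and the mRNA together. The heterotrimer eIF2 carries the initiator tRNA, eIF2B recharges eIF2 with GTP, eIF3 is the scaffold on the small subunit, eIF4F binds the mRNA cap and unwinds the leader, and eIF1, eIF1A, eIF5 and eIF5B govern start codon choice and subunit joining. In blood this machinery is best known from reticulocytes, which make globin and in which the heme-regulated kinase *Eif2ak1* stops initiation by phosphorylating eIF2 when heme is short.

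The values are those normalized by the authors, on a scale where the median gene of a mouse lay between 142.9 and 145.7. Each mouse's values were whole multiples of 1 step, and these multiples, which are not stated to be read counts, summed to between 23810098 and 32293924 per mouse. Globin genes took 78.2 to 87.5% of the multiples in AIWG-P and 75.01 to 83.2% in AIWG-R, with P8 highest and R9 lowest, and the 49 factors together took 23887 to 49584. Markers of all 8 blood cell types that were listed were measured, and none of the lists but that of red cells had more than 1 gene called. In the red cell list 7 of 10 measured genes were called higher in AIWG-P and 0 lower, and its mean log2 level ran from 9.14 to 9.82 in AIWG-P and from 8.16 to 9.40 in AIWG-R. Whether more cells of a type or more RNA per cell lies behind a level in whole blood cannot be told apart.

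Many mRNAs of the translation machinery begin with a C followed by a run of pyrimidines, the 5' terminal oligopyrimidine start through which mTOR and *Larp1* regulate their translation. To show which factor genes carry such letters, the first bases were read from RefSeq (build GRCm38.p6), which gave a start for 38 of the 49 genes. A C followed by at least 5 pyrimidines, beginning within 5 bases of the start on the gene's own strand, was present in 6 of the 38 (15.8%), beside 1066 of the 8312 genes of the table with a RefSeq start (12.8%) and 3229 of all 27025 (11.9%). The windows below run from 10 bases before the start to 19 after it, with the longest such pyrimidine run in capitals. They comprise the 6 genes that carry the letters and then 3 that do not, *Eif5*, *Eif2b4* and *Eif4a2*, on which the comparison below turns.
Eif3f (chr7:108934405-108934434, plus strand): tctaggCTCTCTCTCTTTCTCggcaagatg
Eif2s3x (chrX:94212632-94212661, minus strand): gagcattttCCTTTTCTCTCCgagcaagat
Eif3l (chr15:79075213-79075242, plus strand): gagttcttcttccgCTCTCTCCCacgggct
Eif2b2 (chr12:85219471-85219500, plus strand): ccgagcggaagttgaCCTCTCTCggcccgg
Eif2b5 (chr16:20498807-20498836, plus strand): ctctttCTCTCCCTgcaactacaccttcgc
Eif4g1 (chr16:20672717-20672746, plus strand): gcgcagctccgCCCTCTgcgccggtcacgt
Eif5 (chr12:111538091-111538120, plus strand): cgacgtgcatgcgagccaatgacaagagaa
Eif2b4 (chr5:31193120-31193149, minus strand): cccagtgcacgccggaagttgtagtccgct
Eif4a2 (chr16:23107458-23107487, plus strand): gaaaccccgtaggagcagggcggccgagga

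Each gene's longest run was taken, counted from a C within 5 bases of the start. It was longest in *Eif3f*, with 15 bases, and shortest in *Eif4g1*, with 6. *Eif3l* also holds a shorter run that begins before the start and is left in lower case. As a description, the 6 factors with the letters had log2 fold changes between AIWG-P and AIWG-R from -0.14 to 0.12, with a median of 0.10, and the 32 without them had changes from -0.20 to 0.39, also with a median of 0.10. A match shows only letters in this window and not a start site in use in blood.

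The comparison asked which factors differed in blood between mice that gained much and little weight on olanzapine. Across the 10429 genes tested with limma on log2(value + 1), 0 had a Benjamini-Hochberg adjusted *p* under 0.05, while 1340 had an unadjusted *p* under 0.05. A gene was therefore counted as called at an unadjusted *p* under 0.05 with a level more than 25% higher, the thresholds of the study, or a ratio under 0.8, taken here as the inverse. All 49 factors passed the filter on low values. By this rule 3 of the 49 (6.12%) were called higher in AIWG-P, where 4.06% of all genes were, and these were *Eif3j2*, *Eif5* and *Eif2b4*. No factor was called lower (0 of 49), where 3.23% of all genes were. The smallest adjusted *p* among the factors was 0.325. With no fold threshold, 7 factors were higher at *p* under 0.05 in limma, beside 6.73% of all genes, and 1 was lower, beside 6.12%. Those added were *Eif5a*, *Eif1b*, *Eif2s2* and *Eif3j1* on the higher side and *Eif4g3* on the lower.

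Fold changes above 0 outnumbered those below it on the authors' scale, although few passed the test. There 37 of the 49 (75.5%) had a positive log2 fold change, with a median of 0.11, beside 48.4% of all genes with a median of -0.01. After scaling to each mouse's total without the globins, which moved the median of all genes to -0.15, 19 of the 49 (38.8%) were positive, beside 22.1% of all genes, and the factors' median was -0.03. On that scale 0 factors were called higher, beside 1.55% of all genes, and 2 lower, beside 11.6%. The factors' median lay 0.12 above that of all genes on either scale. It lay 0.07 above without P8 alone and 0.06 above without P8 and R9, the mice with the highest and lowest globin shares. In the 7 mice whose titles carry the number 4 it lay 0.04 above. With red cell marker level in the model it lay 0.09 above, and with each mouse's trend over transcript length removed 0.08 above. The fits without P8 and R9, in the 7 mice and with the length trend removed were chosen after seeing the data. The factors' median within-cohort SD was 0.15 on the log2 scale, beside 0.21 over all genes, and ran from 0.07 for *Eif3c* to 0.47 for *Eif4a-ps4*. The genes were not matched for level in this comparison. A mean value of at least 50 was reached by 48 of the 49 factors and by 8369 genes of the table.

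**Figure D1:**
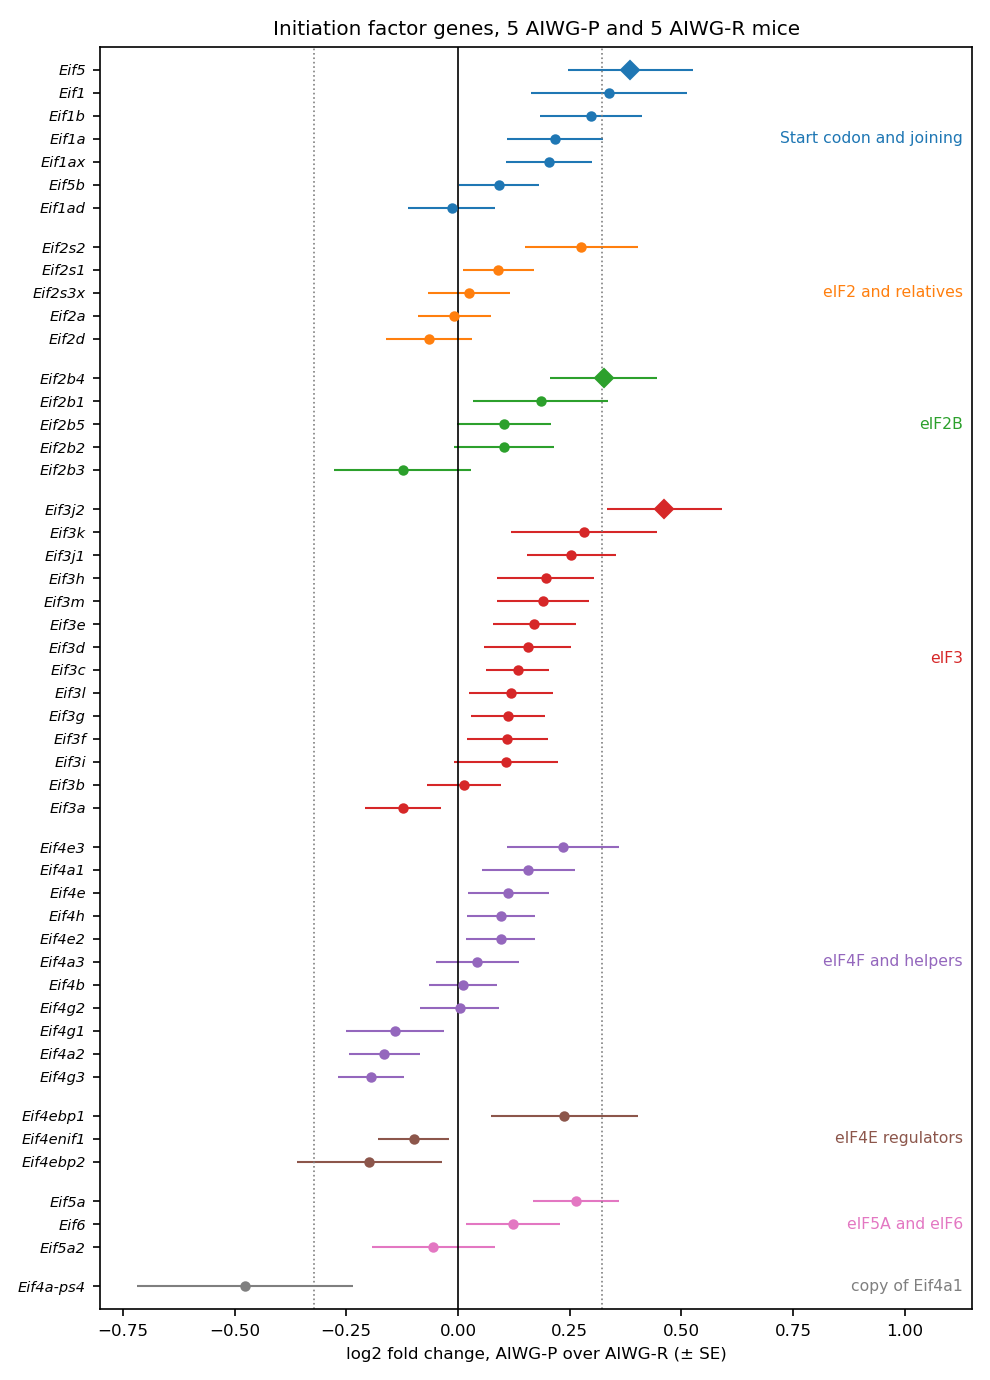
Log2 fold change of each of the 49 factor genes (AIWG-P over AIWG-R, 5 mice each, authors' scale), with its standard error, grouped by complex. Diamonds mark the 3 called genes and dotted lines the fold limits. In 37 genes the point lies right of 0, and 19 do when values are scaled to the total without globins.

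One mouse supplied many of the highest values. P8 was the highest of the 10 mice in 23 of the 49 factors (46.9%) and the lowest in 10 (20.4%), beside 27.1% and 28.5% of all genes tested. R1 and R9 were each lowest in 10 factors, R1 was highest in 0, and P7 was lowest in 0. Summed over the 49 factors, the normalized values were 35416 in P1, 33587 in P3, 34104 in P5, 34536 in P7 and 37529 in P8, and 32005 in R1, 32656 in R2, 31939 in R4, 33644 in R8 and 31093 in R9. On the authors' scale only R8 among the AIWG-R mice exceeded the lowest AIWG-P mouse, P3, so the cohorts overlapped narrowly there. Against the total without globins the order changed. R9, lowest in the sum, had 49584 of 6739619 multiples, a larger share than P8 (23887 of 3645099) or P1 (29301 of 4494254). P7 (34890 of 4835520) still stood above R1 (29831 of 4448980). Of the summed values, the means of *Eif5* were 4548 and 3511 and those of *Eif1* 2831 and 2217, AIWG-P first. Both differences shrank with red cell marker level in the model.

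**Figure D2:**
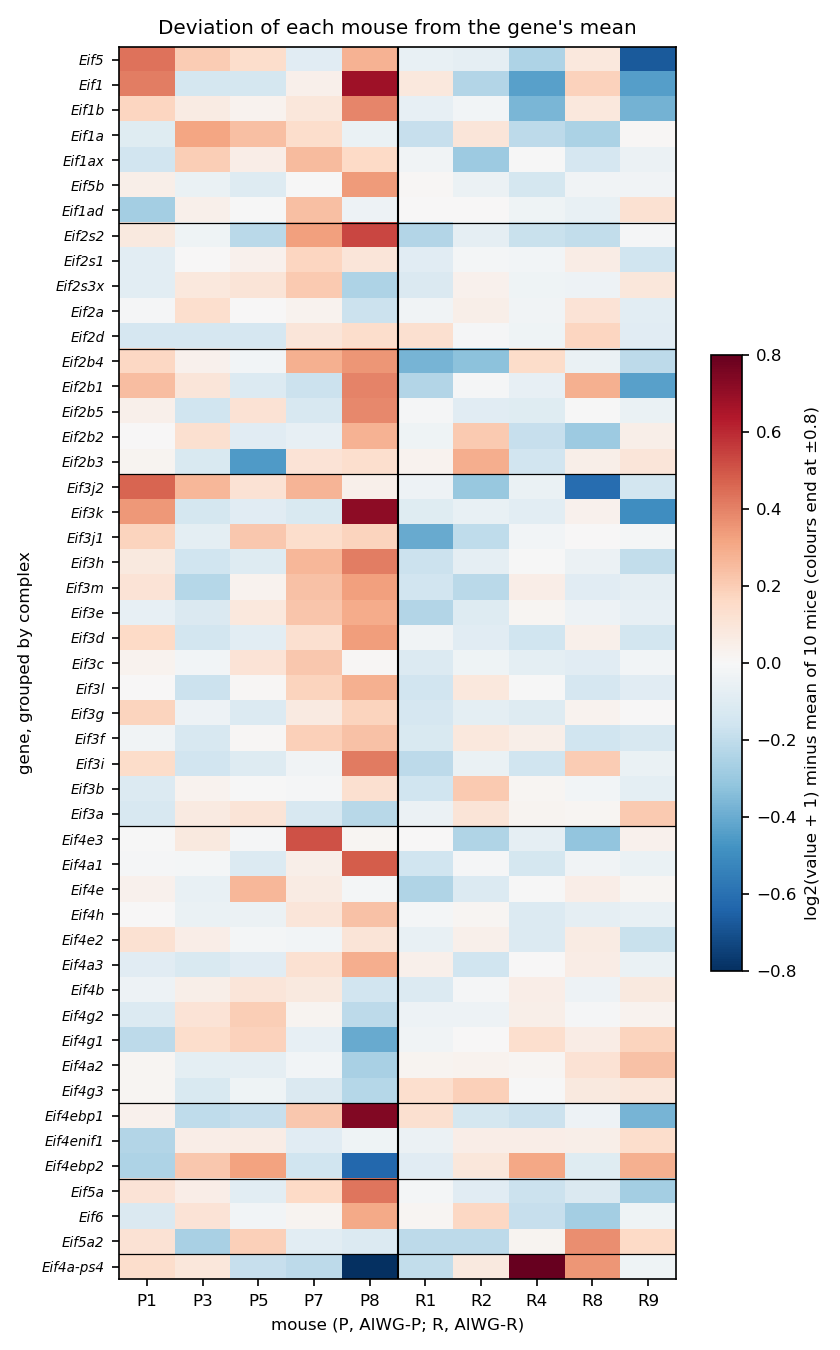
Deviation of log2(value + 1) in each of the 10 mice from the gene's mean over all mice, for the 49 factors by complex (colours end at ±0.8). The P8 column holds the highest value of 23 genes, and the cells furthest from 0 are *Eif4a-ps4* in P8 and R4.

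Per kb of the longest coding transcript, *Eif1* had the highest level of the factors, at 1909 per kb averaged over the 10 mice, followed by *Eif5* at 995, *Eif3k* at 957, *Eif3h* at 921 and *Eif5a* at 869. *Eif2b3* was lowest, at 9.59 per kb. *Eif4g2*, with a mean value of 3157, ranked 11 by this measure, its longest transcript having 7995 bases. Which transcripts are in use in blood was not tested, so the order holds for this measure only. The gap between *Eif1* and *Eif5* was larger than the spread of either gene, while each step from *Eif5* through *Eif3k* and *Eif3h* to *Eif5a* was smaller than the within-cohort spread of either neighbour.

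The factors of start codon choice and joining had the highest median of the complexes on the authors' scale, which was not so with red cell marker level in the model, where their median was 0.10 and those of eIF3 and of eIF5A and eIF6 were 0.14 and 0.15. Of these 7 genes, 6 had a positive fold change on the authors' scale (5 when scaled without globins), the median was 0.22 on the log2 scale, and 1 was called. *Eif5*, whose product triggers GTP hydrolysis by eIF2 once the start codon is found, had a normalized value of 5341 in P1, 4545 in P3, 4350 in P5, 3716 in P7 and 4786 in P8. In AIWG-R it was 3798 in R1, 3759 in R2, 3334 in R4, 4190 in R8 and 2475 in R9. Thus P7 lay below 3 AIWG-R mice, and R9 stood lowest. The means were 4548 ± 595 and 3511 ± 654 (SD, n = 5 each), a 1.31-fold difference (log2 0.39 ± 0.14, SE; limma *p* = 0.0164, adjusted *p* = 0.343, exact two-sided permutation *p* = 0.0317). Without R9 the log2 difference was 0.26 ± 0.11 and fell short of the fold threshold. With red cell marker level in the model it was 0.01 ± 0.08. The part of red cell RNA in the difference was not tested beyond this fit.

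*Eif1*, which keeps the ribosome scanning until it meets a start codon, had 3255 in P1, 2222 in P3, 2228 in P5, 2517 in P7 and 3932 in P8, against 2598 in R1, 2085 in R2, 1815 in R4, 2781 in R8 and 1805 in R9. Its cohorts overlapped widely, and P1 and P8 alone stood above all AIWG-R mice. The log2 difference was 0.34 ± 0.17 (SE, exact permutation *p* = 0.151, limma adjusted *p* = 0.431), and 0.03 ± 0.19 with red cell marker level in the model. *Eif1b*, the close relative of *Eif1*, ran from 149 to 192 in AIWG-P and from 112 to 155 in AIWG-R, a log2 difference of 0.30 ± 0.11 (SE, exact permutation *p* = 0.0238, limma adjusted *p* = 0.343), short of the fold threshold. The eIF1A genes, whose products bind the ribosomal A site during scanning, differed by 0.22 ± 0.11 for *Eif1a* and 0.20 ± 0.10 for *Eif1ax* (exact permutation *p* = 0.0794 and 0.0635). *Eif1a* ran from 152 to 203 in AIWG-P and from 137 to 174 in AIWG-R, and *Eif1ax* from 179 to 238 and from 163 to 199, so both overlapped. *Eif5b*, the GTPase that joins the subunits, differed by 0.09 ± 0.09 and *Eif1ad*, which has an eIF1A-like domain, by -0.01 ± 0.10 (limma adjusted *p* = 0.958).

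In eIF2 no gene was called. *Eif2s2*, the beta subunit, had 338 in P1, 313 in P3, 277 in P5, 403 in P7 and 465 in P8, against 273 in R1, 306 in R2, 283 in R4, 280 in R8 and 319 in R9. P7 and P8 carried the higher AIWG-P mean, and the other AIWG-P mice lay at or near the AIWG-R range (log2 0.28 ± 0.13, SE; exact permutation *p* = 0.0873, limma adjusted *p* = 0.387). The alpha subunit *Eif2s1*, the target of the stress kinases, differed by 0.09 ± 0.08 and the gamma subunit *Eif2s3x*, which holds the GTP and the tRNA, by 0.02 ± 0.09. *Eif2a* and *Eif2d*, which can bring initiator tRNA without eIF2, had the smallest and the lowest difference of this group, at -0.01 ± 0.08 and -0.07 ± 0.10 (limma adjusted *p* = 0.971 and 0.774). The 3 subunits of the heterotrimer thus had differences from 0.02 to 0.28, each within about 2 standard errors of 0 except that of *Eif2s2*.

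Of the 5 subunits of eIF2B, *Eif2b4*, the delta subunit of its regulatory part, was called. Its values were 117 in P1, 107 in P3, 103 in P5, 128 in P7 and 134 in P8, and 80.5 in R1, 83.1 in R2, 116 in R4, 101 in R8 and 90.3 in R9. Only R4 reached into the AIWG-P range. The means were 118 ± 13.0 and 94.1 ± 14.5 (SD, n = 5 each), a 1.253-fold difference (log2 0.33 ± 0.12, SE; limma *p* = 0.0183, adjusted *p* = 0.343, exact two-sided permutation *p* = 0.0317). It stood so close to the fold threshold that the call was lost when P7, P8, R1, R2 or R9 was left out, with log2 differences of 0.27 to 0.31. The call was also lost with red cell or T and B cell marker level or the title number in the model, without P8 and R9, and with the length trend removed, and the difference was 0.18 ± 0.13 scaled without globins and 0.17 ± 0.13 in the mice with title number 4. The catalytic subunit *Eif2b5* differed by 0.10 ± 0.10, and the regulatory subunits *Eif2b1* and *Eif2b2* by 0.19 ± 0.15 and 0.10 ± 0.11. *Eif2b3*, the partner of *Eif2b5* in the catalytic part, had a difference of -0.12 ± 0.15 (limma adjusted *p* = 0.729), the only one of the 5 below 0 on the authors' scale.

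**Figure D3:**
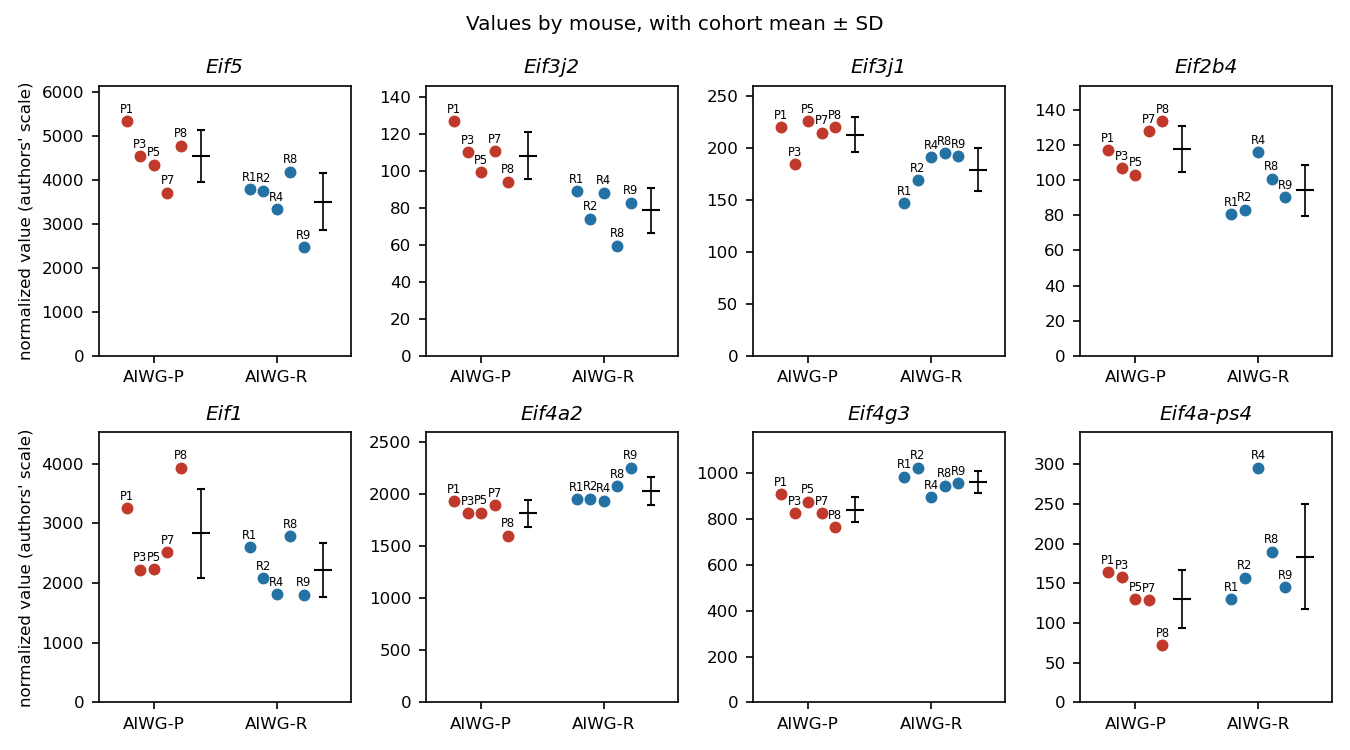
Normalized value (authors' scale, axes from 0) of 8 factor genes in each AIWG-P mouse (red) and AIWG-R mouse (blue), with the cohort mean and SD in black. *Eif3j2* is higher in all 5 AIWG-P mice and *Eif4a2* lower in all 5, the latter by a narrow gap, and the other 6 genes overlap.

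The largest family, eIF3, had 13 of 14 genes with a positive fold change on the authors' scale and 7 of 14 when scaled without globins, and 1 gene was called. That gene, *Eif3j2*, encodes the loosely bound j subunit, which sits near the decoding centre. It had 127 in P1, 110 in P3, 99.2 in P5, 111 in P7 and 94.3 in P8, and 89.0 in R1, 74.2 in R2, 88.2 in R4, 59.7 in R8 and 82.8 in R9. Every AIWG-P value exceeded every AIWG-R value, the only factor of the 49 to do so, beside 1.11% of all genes tested. The means were 108 ± 12.6 and 78.8 ± 12.2 (SD, n = 5 each), a 1.38-fold difference (log2 0.46 ± 0.13, SE; limma *p* = 0.0033, adjusted *p* = 0.325, exact two-sided permutation *p* = 0.00794, the smallest that 5 against 5 mice can give). The call held when any 1 mouse was left out, with log2 differences of 0.37 to 0.51, and within the 7 mice whose titles carry the number 4 it was 0.56 ± 0.15. Scaled without globins the difference was 0.32 ± 0.16, the call was lost and the cohorts of *Eif3j2* overlapped.

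*Eif3j2* is a near copy of *Eif3j1*. Of its 50-base stretches 90.8% occur letter for letter in *Eif3j1*, so how reads were divided between these genes depends on the authors' counting. *Eif3j1* itself had 220 in P1, 184 in P3, 226 in P5, 215 in P7 and 220 in P8, and 147 in R1, 169 in R2, 192 in R4, 195 in R8 and 193 in R9. Only P3 lay within the AIWG-R range (log2 0.25 ± 0.10, SE; exact permutation *p* = 0.0317, limma adjusted *p* = 0.348). The sum of both genes, chosen after their values were seen and given as a description, was 347 in P1, 295 in P3, 325 in P5, 326 in P7 and 314 in P8, and 236 in R1, 243 in R2, 280 in R4, 255 in R8 and 275 in R9. On the authors' scale the cohorts did not overlap in the sum, which does not depend on how reads were divided between these copies. The sum was not rescaled to the total without globins, on which the cohorts of *Eif3j2* overlapped.

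The other subunits of eIF3 differed less. The highest was *Eif3k*, part of the peripheral k and l pair, with 1079 in P1, 769 in P3, 798 in P5, 781 in P7 and 1394 in P8, and 794 in R1, 815 in R2, 801 in R4, 869 in R8 and 602 in R9. P1 and P8 were high and R9 low, while the other mice could not be told apart by cohort (log2 0.28 ± 0.16, SE; exact permutation *p* = 0.27, limma adjusted *p* = 0.462). With red cell marker level in the model the difference was -0.019 ± 0.17, and without P8 and R9 it was 0.050 ± 0.10. The octamer genes *Eif3c*, *Eif3e*, *Eif3f*, *Eif3h*, *Eif3l* and *Eif3m* differed by 0.11 to 0.20 with standard errors of 0.07 to 0.11, the cap-binding subunit *Eif3d* by 0.16 ± 0.10, and *Eif3g* and *Eif3i* by 0.11 ± 0.08 and 0.11 ± 0.12. The large scaffolds lay lower: *Eif3b* differed by 0.01 ± 0.08, and *Eif3a* by -0.12 ± 0.09 (limma adjusted *p* = 0.533), the lowest of the family. *Eif3c* had the smallest spread of all factors, and its difference of 0.13 ± 0.07 (limma *p* = 0.0795) had an exact permutation *p* of 0.0159.

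In eIF4F and its helpers no gene was called in either direction on the authors' scale, where 8 of 11 had a positive fold change. Scaled without globins, 2 of 11 were positive, with a median of -0.10. *Eif4g3* was then called lower, where 11.6% of all genes were. *Eif4a2*, one of the pair of cap-complex helicases, had 1936 in P1, 1821 in P3, 1823 in P5, 1894 in P7 and 1602 in P8, and 1952 in R1, 1957 in R2, 1938 in R4, 2075 in R8 and 2255 in R9. Every AIWG-P value was under every AIWG-R value, as in 1.44% of all genes tested, although P1 and R4 were separated by a narrow gap. The log2 difference was -0.17 ± 0.08 (SE, limma *p* = 0.0576, adjusted *p* = 0.4, exact two-sided permutation *p* = 0.00794). *Eif4g3*, a scaffold that links the cap-binding protein to the helicase, had 908 in P1, 825 in P3, 876 in P5, 827 in P7 and 765 in P8, and 984 in R1, 1024 in R2, 894 in R4, 946 in R8 and 958 in R9. Only P1 and R4 overlapped (log2 -0.19 ± 0.07, SE; exact permutation *p* = 0.0159, limma adjusted *p* = 0.343), and the 0.87-fold ratio was short of the fold threshold. *Eif4g1*, the major scaffold, differed by -0.14 ± 0.11 and *Eif4g2*, which lacks the site for eIF4E, by 0.00 ± 0.09.

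None of the cap-binding genes was called. On the authors' scale all 3 had differences above 0, while scaled without globins those of *Eif4e* and *Eif4e2* were -0.030 and -0.048, and that of *Eif4e2* was -0.020 with red cell marker level in the model. *Eif4e*, which recognises the cap, differed by 0.11 ± 0.09 and *Eif4e2*, a cap-binding protein known as a repressor, by 0.10 ± 0.08. *Eif4e3* had the highest difference of the complex, at 0.24 ± 0.13 (SE, exact permutation *p* = 0.0714, limma adjusted *p* = 0.44). Its values were 82.2 in P1, 87.3 in P3, 82.1 in P5, 118 in P7 and 83.3 in P8, and 82.6 in R1, 69.7 in R2, 78.4 in R4, 66.2 in R8 and 84.7 in R9. P7 alone was high and the cohorts overlapped otherwise. The helicase cofactors *Eif4b* and *Eif4h* differed by 0.01 ± 0.08 and 0.10 ± 0.08, and *Eif4a3*, a helicase of the exon junction complex, by 0.04 ± 0.09.

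*Eif4a1*, the main helicase of eIF4F, had 1090 in P1, 1082 in P3, 1015 in P5, 1133 in P7 and 1532 in P8, and 980 in R1, 1088 in R2, 993 in R4, 1077 in R8 and 1057 in R9. P8 stood far above the rest, which overlapped (log2 0.16 ± 0.10, SE; exact permutation *p* = 0.103, limma adjusted *p* = 0.517). As a share of the summed normalized value of both helicases, not corrected for length, *Eif4a2* made up 64.0% in P1, 62.7% in P3, 64.2% in P5, 62.6% in P7 and 51.1% in P8, and 66.6% in R1, 64.3% in R2, 66.1% in R4, 65.8% in R8 and 68.1% in R9. The AIWG-P mice had the lower share throughout, P5 and R2 almost touching. This share was chosen after its values were seen, so it is given as a description and no *p* value is drawn from it.

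The symbol pattern also took in the pseudogene *Eif4a-ps4*, which was not called. It is a processed copy of *Eif4a1*, and over its 1218 bases the GENCODE transcripts differ at 1 base, so that its values and part of those of *Eif4a1* cannot be told apart from each other with certainty. The 41 bases around that difference show how close the copies are, with the differing base in capitals (G534A, counted from the first base of the pseudogene transcript, *Eif4a1* first).
Eif4a1: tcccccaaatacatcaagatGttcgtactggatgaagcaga
Eif4a-ps4: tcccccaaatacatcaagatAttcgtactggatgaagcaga

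*Eif4a-ps4* was listed at 164 in P1, 158 in P3, 130 in P5, 129 in P7 and 72.3 in P8, and 130 in R1, 157 in R2, 296 in R4, 190 in R8 and 145 in R9. R4 was high and P8 low, and the other 8 values overlapped. Its log2 difference of -0.48 ± 0.24 (SE, exact permutation *p* = 0.167, limma adjusted *p* = 0.424) was the lowest of the 49, with the widest spread. With *Eif4a2* added to *Eif4a1* and its copy, the share of *Eif4a2* was 49.98 to 61.4% in AIWG-P and 60.1 to 65.2% in AIWG-R, so that the cohorts overlapped.

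Among the regulators of eIF4E, which block or move the cap-binding protein, no gene was called. *Eif4ebp1* differed by 0.24 ± 0.16 (limma adjusted *p* = 0.533), with 310 in P8 and 143 to 215 in the other 9 mice. *Eif4ebp2* differed by -0.20 ± 0.16 (adjusted *p* = 0.598), with 258 in P8 and 336 to 499 in the other mice. P8 thus held the extreme of both binding proteins, in opposite directions. *Eif4enif1*, the transporter of eIF4E, differed by -0.10 ± 0.08. *Eif5a*, the hypusine-bearing factor that also acts in elongation, had 1332 in P1, 1282 in P3, 1168 in P5, 1381 in P7 and 1665 in P8, and 1225 in R1, 1164 in R2, 1098 in R4, 1144 in R8 and 1024 in R9. P5 alone lay within the AIWG-R range (log2 0.26 ± 0.10, SE; limma *p* = 0.0166, adjusted *p* = 0.343, exact permutation *p* = 0.0159), and the ratio of 1.2 was below the threshold. Its relative *Eif5a2* ran from 62.2 to 85.2 in AIWG-P and from 64.4 to 96.5 in AIWG-R and differed by -0.05 ± 0.14 (limma adjusted *p* = 0.878), and *Eif6*, which keeps free large subunits from joining, by 0.12 ± 0.11.

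The fold changes followed transcript length, both in the factors and in the table as a whole. Over the 48 factors with a protein-coding transcript in GENCODE M21, the log2 fold change and the length of the longest such transcript had a Spearman correlation of -0.53, and over 9674 genes of the table it was -0.49. Both describe the same 10 libraries across genes, which are not independent replicates. In the shortest of 5 equal groups of genes, up to 1830 bases, all 13 factors had a positive change on the authors' scale, with a median of 0.17 beside 0.14 for all genes of that group. In the longest group, from 5153 bases, 4 of 7 did, with a median of 0.00 beside -0.16. The difference between the longest and the shortest group, as the median log2 deviation of all genes in a mouse, was -0.19 in P1, 0.20 in P3, 0.23 in P5, -0.17 in P7 and -0.79 in P8, and 0.09 in R1, 0.09 in R2, 0.20 in R4, 0.03 in R8 and 0.30 in R9. P8 was far below the others, P1 and P7 were moderately low, and P3 and P5 lay in the range of AIWG-R.

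With the length trend of each mouse removed, an alternative chosen after seeing the data, 3 of 48 factors were called higher, beside 3.23% of 9674 genes, and these were *Eif3j1*, *Eif3j2* and *Eif5*. The differences were then 0.35 ± 0.11, 0.42 ± 0.13 and 0.43 ± 0.14, while that of *Eif2b4* was 0.26 ± 0.11 and lost its call. *Eif4g3*, whose transcript is the longest of the factors at 8134 bases, went from -0.19 to -0.01 ± 0.10, and *Eif4a2* went from -0.17 to -0.19 ± 0.07. What lies behind the length relation was not tested.

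**Figure D4:**
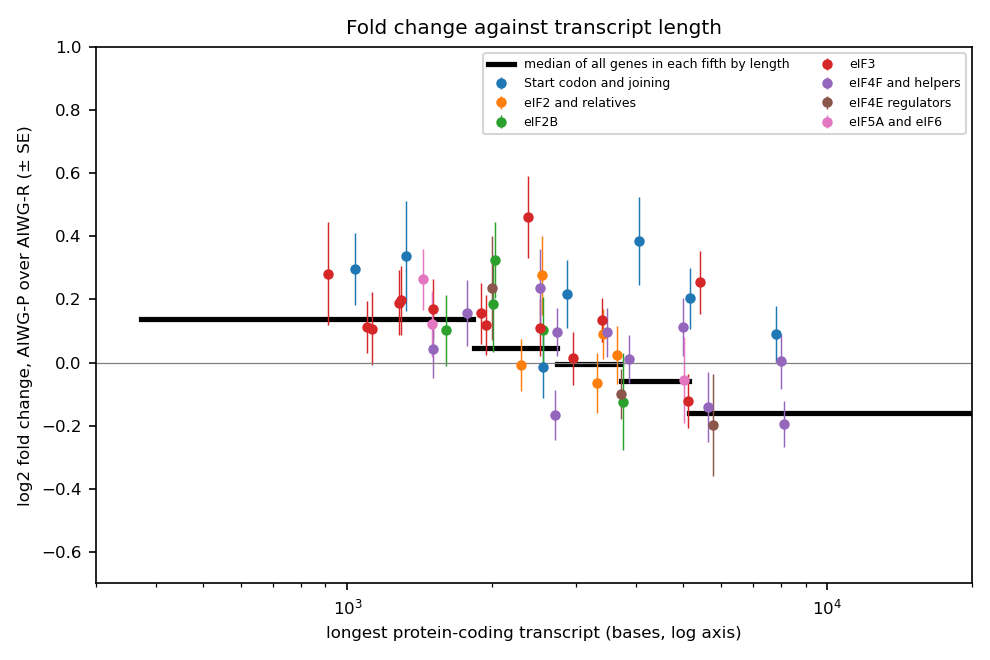
Log2 fold change (AIWG-P over AIWG-R, authors' scale) with its standard error for 48 factors against the length of the longest protein-coding transcript (log axis, on which the last bar runs past the frame). Black bars give the median of all genes in each of 5 equal length groups, which goes from 0.14 in the shortest to -0.16 in the longest.

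Of 44 related genes of translation, 41 were measured, and 3 were called higher and 0 lower, beside 4.06% and 3.23% of all genes tested. *Pabpc4*, a poly(A)-binding protein, had 989 in P1, 909 in P3, 811 in P5, 698 in P7 and 952 in P8, and 688 in R1, 739 in R2, 601 in R4, 768 in R8 and 537 in R9 (log2 0.39 ± 0.12, SE; limma adjusted *p* = 0.325). P7 alone lay within the AIWG-R range. *Eef1d*, which recharges elongation factor eEF1A, had 1074 in P1, 815 in P3, 906 in P5, 923 in P7 and 1262 in P8, and 801 in R1, 746 in R2, 705 in R4, 853 in R8 and 681 in R9 (log2 0.38 ± 0.12, SE; limma adjusted *p* = 0.325). P3 alone lay within the AIWG-R range. *Ppp1r15a*, the stress-induced subunit that directs a phosphatase to eIF2, ran from 370 to 779 and from 214 to 466 (log2 0.49 ± 0.22, limma adjusted *p* = 0.382). Scaled without globins, or with red cell marker level in the model, none of these 3 was called. Without P8 only *Pabpc4* was called, without R9 only *Eef1d*, and without both 0 were.

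Other related genes with small *p* in limma fell short of the fold threshold. *Paip2*, which binds and inhibits the poly(A)-binding protein, differed by 0.31 ± 0.09, and *Pabpn1*, its nuclear counterpart, by -0.25 ± 0.07. The kinases of eIF2 were not called: *Eif2ak1*, the heme-regulated one, differed by 0.14 ± 0.09, *Eif2ak2* by -0.04 ± 0.18, *Eif2ak3* by -0.06 ± 0.12 and *Eif2ak4* by -0.24 ± 0.15. Of the 7 kinase-pathway genes around mTOR, 1 had a positive difference on the authors' scale, and 0 were called. The 8 measured genes of the elongation list, not all of which encode elongation factors, had a median of 0.17 with 6 positive. The 6 poly(A)-binding and associated genes had the same median with 4 positive.

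The calls depended on single mice and on scaling to different degrees. Without R9, *Eif3j2* was the only factor called, beside 2.54% of all genes called higher, and likewise without P8 and R9 together, beside 1.71%. Within the 7 mice with title number 4, whose meaning is not given in the labels, *Eif3j2* and *Eif5* were called, beside 3.72% of all genes. The 3 mice with number 3, of which 1 is AIWG-R, were too few for a value of their own. With red cell marker level in the model, the called factors were *Eif3j2*, *Eif1a* and *Eif4e3*, where 1.21% of all genes were called higher, and *Eif5* was not among them.

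**Figure D5:**
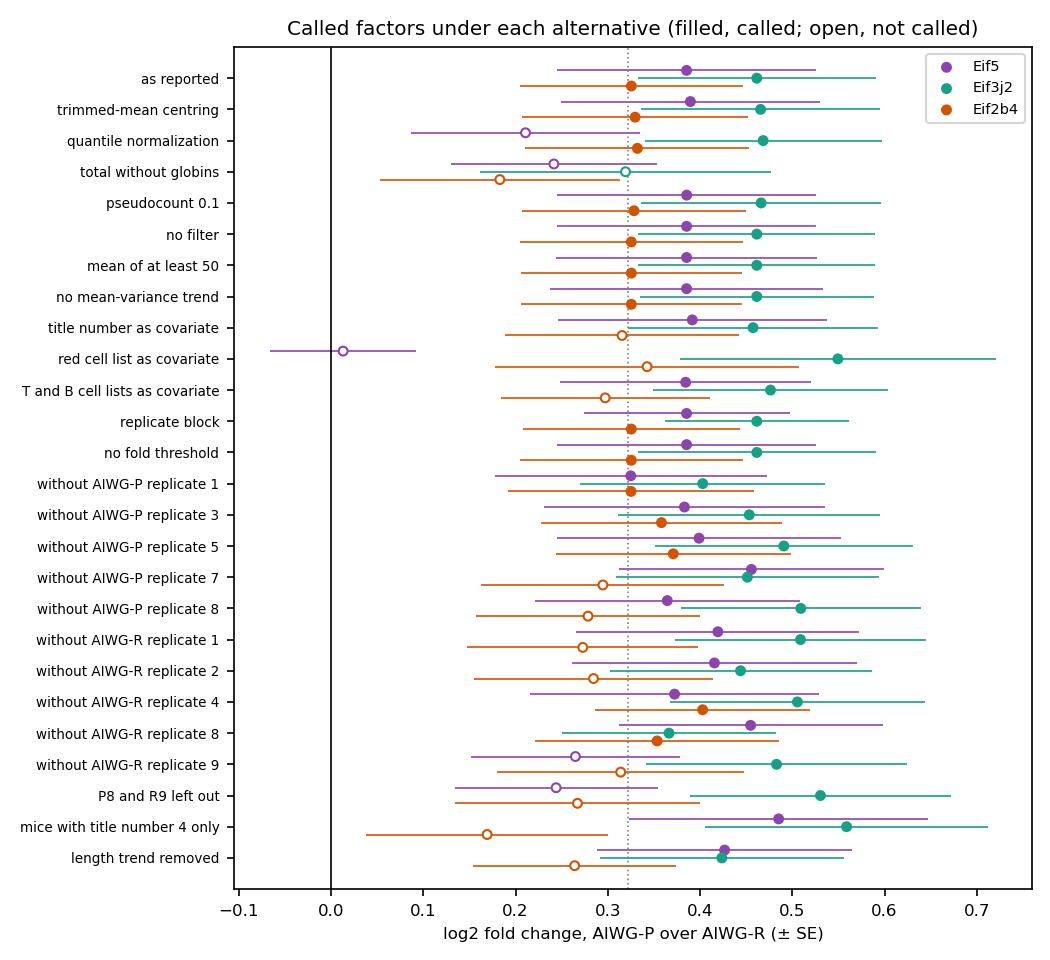
Log2 fold change with its standard error of the 3 called factors, as reported and under each of 25 alternatives (filled, called; open, not called; dotted line, the fold limit). *Eif3j2* was called in 24, *Eif5* in 20 and *Eif2b4* in 13, and the *Eif5* value with red cell marker level in the model lies at 0.01.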

How the data were processed

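The submitters' processing notes and the study's methods name Bowtie2 alignment to the mouse transcriptome, RSEM quantification, limma and the mm9 build, of which no version is given in the sources used here. The authors deposited 1 table of 10431 genes with 1 normalized signal value per mouse, by a normalization the sources do not name. Their columns of cohort means, fold changes, log2 ratios, *p* values and q values were not used, and all 10 per-mouse columns were. Each value lay within 0.02 of a whole multiple of 1 step per mouse, which was used only to give depths. The values were tested as normalized values on log2(value + 1), so a fold change understates that of low genes, with a filter of a value above 1 in at least 5 of 10 mice and was fitted over all genes in limma 3.58.1 (R 4.3.3), allowing the variance to follow the mean. For single genes, the exact permutation test of scipy 1.17.1 was added, two-sided. The fit was tested on simulated data. The limma *p* values set the cohort difference against the spread between these mice, moderated over all genes. Permutation *p* values set it against all regroupings of the 10 mice into 5 and 5. The study chose the cohorts as the extremes in weight gain of a larger group, which these *p* values do not describe. Standard errors are those of the limma fit.

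Every factor is named, with most detail for those called, with cohorts that do not overlap, highest or lowest in their complex, or near copies, and of related genes those called and the 4 with the smallest *p* are named. Values per mouse are printed for a selection of these. The factors, the complexes and the other lists were chosen with earlier results of these data known. Shared 50-base stretches and transcript lengths came from GENCODE M21, and start sequences from RefSeq. Alternatives covered scaling, pseudocount, filter, trend, covariates, a replicate block, the fold threshold and leaving out mice, and 3 were added after seeing the data: P8 and R9 left out together, only mice with title number 4, and a length trend removed within each mouse.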

Additional observations from a re-analysis of the deposited data

Results flagged for a closer look

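In each cohort the highest or lowest mouse of every factor was compared with the other 4 by its gap to the nearest, divided by the cohort's range. Of 98 such groups 4 had a gap above 0.71 of the range, while chance alone flags about 1 in 20 groups. *Eif3j1* was low in P3, at 184.4, beside 214.8 to 225.8 in the other AIWG-P mice. *Eif3k* was low in R9, at 602, beside 793.9 to 868.8 in the other AIWG-R mice. *Eif4a1* was high in P8, at 1532, beside 1015 to 1133. *Eif4e3* was high in P7, at 117.8, beside 82.05 to 87.28. The 4 fell in 4 different mice.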

How the results depend on the processing

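Of 1223 values of single factors over 25 alternatives, 1121 kept their direction and their side of the thresholds, and 26 of the 49 factors never changed sign. The 3 factors called higher became 0 and the 0 called lower became 2 (*Eif4a-ps4* and *Eif4g3*) when values were scaled to the total without globins, 7 and 1 with no fold threshold, and the number higher was 1 without P8 and R9 together. Leaving out each mouse in turn gave 1 to 6 higher, beside 2.54 to 5.4% of all genes. There were 1 without R9 (2.54%), 6 without P5 (5.4%) and 5 without R8 (4.66%). The number lower was 0 to 1 (*Eif4a-ps4*, without P1, P3 or R1), beside 2.19 to 6.11%. Factors whose cohorts did not overlap numbered 2 to 4, beside 3.27 to 4.91% of all genes (2 factors and 2.55% with all mice). Scaled without globins they were 2, *Eif4a2* and *Eif4g3*, beside 4.42% of all genes. The 3 related genes called, counted in either direction, became 7 of 41 with no fold threshold, *Pabpn1* among them being lower. Of all genes 6.73% were then higher and 6.12% lower. With red cell marker level in the model 1 was called (*Eef1e1*, none of the 3), beside 1.21% and 2.52%. There was 1 in mice with title number 4 (3.72% and 1.57%) and 0 without P8 and R9 (1.71% and 1.8%). With the length trend removed there were 5 (3.23% and 2.35%). Leaving out each mouse in turn gave 1 to 5, beside 2.54 to 5.4% and 2.19 to 6.11%. Scaling without globins called 2 others, *Pabpn1* and *Paip2b*, both lower, where 11.6% of all genes were. Over all genes, the 423 called higher and 337 lower became 162 and 1212 scaled without globins, 178 and 188 without P8 and R9, and 702 and 638 with no fold threshold. The number higher was 265 without R9 and 126 with red cell marker level in the model, and the number lower 637 without P3, 602 without P5 and 164 in mice with title number 4.

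In the following, only values that changed sign are given. Scaled without globins they were *Eif3c* -0.0096, *Eif3l* -0.025, *Eif3f* -0.033, *Eif3i* -0.036, *Eif6* -0.021, *Eif3g* -0.031, *Eif4e* -0.030, *Eif4h* -0.047, *Eif2b5* -0.040, *Eif5b* -0.052, *Eif4e2* -0.048, *Eif2s1* -0.053, *Eif2b2* -0.040, *Eif4a3* -0.10, *Eif2s3x* -0.12, *Eif4b* -0.13, *Eif4g2* -0.14 and *Eif3b* -0.13. Under quantile normalization they were *Eif4b* -0.030, *Eif4g2* -0.12 and *Eif2a* 0.0019. With the title number as a covariate *Eif2a* was 0.0085, and with the T and B cell lists 0.016. With the red cell list they were *Eif3k* -0.019, *Eif2b1* -0.12, *Eif4e2* -0.020, *Eif3b* -0.0073 and *Eif1ad* 0.13. Without P8 and R9 they were *Eif4a3* -0.030, *Eif3b* -0.035, *Eif1ad* 0.022 and *Eif2a* 0.012. In mice with title number 4 they were *Eif3l* -0.018, *Eif3f* -0.0097, *Eif3i* -0.024, *Eif4a3* -0.063, *Eif3b* -0.059 and *Eif2a* 0.029. With the length trend removed they were *Eif3i* -0.046, *Eif3g* -0.045, *Eif4a3* -0.063 and *Eif5a2* 0.024. Leaving out each mouse gave ranges of -0.076 to 0.052 for *Eif1ad*, -0.043 to 0.034 for *Eif2a*, -0.024 to 0.090 for *Eif2s3x*, -0.025 to 0.067 for *Eif3b*, -0.023 to 0.079 for *Eif4a3*, -0.015 to 0.051 for *Eif4b*, -0.045 to 0.057 for *Eif4g2* and -0.11 to 0.031 for *Eif5a2*. The cause of these changes was not tested.

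Mouse numbers 1 and 8 occur in both cohorts, but nothing in the labels says that they pair mice. Deviations of the same-numbered mice correlated at 0.12 and 0.33 across genes, and no such value was computed for differently numbered mice to compare them with. With these numbers as a replicate block, 4 factors were called higher, *Eif1* being added, beside 4.67% of all genes, and 0 lower, beside 4.74%. The planned count-based test was not run, because the recovered steps met the criterion for whole reads in 1 of 10 mice. With 5 mice a cohort and no adjusted *p* below 0.325, differences of the size seen here were not told from the spread after correction over all genes.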
